A study of Mus musculus with 6 samples.

Results

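The transcripts of 10 ETS transcription factor genes, Erg, Fli1, Ets1, Ets2, Elf1, Gabpa, Etv5, Etv6, Etv3 and Erf, were examined in mouse bone marrow stem and progenitor cells sorted by a reporter of Erg restoration. The members were all probe sets that the probe table gives to 1 of these symbols and to no other gene, which were 26 of the 45037 probe sets that are not controls. A probe set is a group of array probes read as 1 transcript signal, and each of the 10 genes had at least 2. Of the 26, 21 passed a filter on low values and were tested, and the remaining 5 are given as values only. Cells came from 3 adult Mx1Cre;Ergkd/+;R26Y mice (278, 279 and 281) of mixed 129-B6 background. All of these mice thus had the Mx1Cre transgene, an inducible Cre active in many blood cells, 1 Ergkd allele and the Rosa26-Stop-YFP reporter. From each mouse, YFP- LSK cells, labelled as Erg knockdown with about 40% less Erg, and YFP+ LSK cells, labelled as Erg restored to wild type, were sorted and hybridized to 1 Affymetrix mouse genome 430 2.0 array each. LSK stands for lineage-negative cells with Sca-1 and Kit on their surface, a gate that holds stem cells and early progenitors. The populations differ in YFP and in whether Cre acted, as well as in labelled Erg dose, and these cannot be told apart.

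ETS factors bind DNA through a shared ETS domain that recognises a core of GGAA. ERG and its closest relative FLI1 help to maintain blood stem cells, and Fli1 lies beside Ets1, as Erg lies beside Ets2, with 0 protein-coding genes between the members of either pair in the mouse annotation. Some family members mainly activate their targets (ETS1, ETS2, ELF1, GABPA, ETV5), while ETV6, ETV3 and ERF mainly repress, so several factors can meet at the same core sequence with opposite effects.

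The arrays had a mean intensity between 1031 and 1071 over all probe sets. The restored-labelled array of mouse 279 stood apart in the 3′ over 5′ log2 ratio of the actin and Gapdh controls, a sign of RNA quality, at 0.707 against 0.471 to 0.540 on the other arrays. For the gate, 4 markers were analysed and all passed the filter (Kit, Flt3, Cd34 and Procr), while Ly6a, which encodes Sca-1, was not analysed here. Their summed intensity was 21087 to 22984 in knockdown-labelled cells and 19721 to 20943 in restored-labelled cells, without overlap. B-cell markers summed to 6659.7 to 13815 in knockdown-labelled cells and 3899 to 6348 in restored-labelled cells. In that list Ighm and Cd79b passed the filter, Cd79a, Pax5, Ebf1 and Ms4a1 did not, and Pax5 was listed at 0 on at least 1 array. Only 4 of these 6 B-cell markers were higher in knockdown-labelled cells by mean difference. Megakaryocyte and platelet markers, all 5 above the filter, summed to 6441 to 7148 in knockdown-labelled cells and 7489.6 to 10278 in restored-labelled cells. The sums of the remaining marker lists overlapped between the populations, although a sum follows its brightest genes. By mean difference, 6 of 6 T and NK cell, 5 of 7 neutrophil and 3 of 3 erythroid markers were higher in knockdown-labelled cells. Of the monocyte and macrophage markers 0 of 6 were higher, at a median difference of -0.42, against 0.28 for T and NK cells. These counts include markers below the filter. T and NK cell markers (2 of 6 above the filter) summed to 626 to 1088 in knockdown-labelled cells and 457 to 892 in restored-labelled cells. Neutrophil markers (7 of 7) summed to 44094 to 68348 in knockdown-labelled cells and 36275 to 64377 in restored-labelled cells. Monocyte and macrophage markers (4 of 6) summed to 7193 to 7839.9 in knockdown-labelled cells and 7529 to 8963 in restored-labelled cells. Erythroid markers (2 of 3) summed to 986 to 4177 in knockdown-labelled cells and 1221 to 3450.2 in restored-labelled cells. Endothelial markers (5 of 7, with the defining Cdh5 and Kdr below the filter) summed to 3167 to 3702 in knockdown-labelled cells and 2749 to 3682 in restored-labelled cells. Of these 7 markers, 4 were higher in knockdown-labelled cells by mean difference. Among the 4, Cldn5 gave 291, 512 and 207 in knockdown-labelled cells, against 83.1, 45.9 and 86.9 in restored-labelled cells. The part of these cells in the results below was not tested. In bulk samples, fewer cells of a type and less RNA per cell cannot be told apart.

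Erg, the gene whose dose the labels describe, had overlapping values in the populations at both of its probe sets. Its brighter probe set (1440244_at) gave 2969.9, 2754 and 2706 in the knockdown-labelled cells of mice 278, 279 and 281, against 2731, 2901 and 2659 in their restored-labelled cells. The log2 difference was 0.02 ± 0.0894 (SE; unadjusted p = 0.804 and adjusted p = 0.954 in limma over 22519 probe sets). Unless a fit of 5 arrays or a single mouse is named, each difference is a log2(intensity + 16) value of knockdown-labelled cells minus that of restored-labelled cells, fitted with the mouse as a block. The 95% interval runs from a fall of 14.5% (-14.5%) to a rise of 20.8%. The dimmer Erg probe set (1425370_a_at) gave 1820.1, 1331 and 1569.7 in knockdown-labelled cells, against 1859, 1542 and 1686 in restored-labelled cells. It was lower in every mouse by a small amount (-0.11 ± 0.0882, adjusted p = 0.818, limma), with an interval from -22.1% to 9.54%. The labelled reduction of 40% lies outside both intervals, which are of array signals. How the labelled reduction was measured was not analysed here, so the measures may be unlike. Exact two-sided sign-flip tests over the 3 mice gave p = 0.75 and p = 0.25, and 0.25 is the smallest p that 3 pairs allow. The exons read by the 2 probe sets were not analysed here, and neither was their place relative to the Ergkd change, so the populations are called by their labels.

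**Figure D1:**
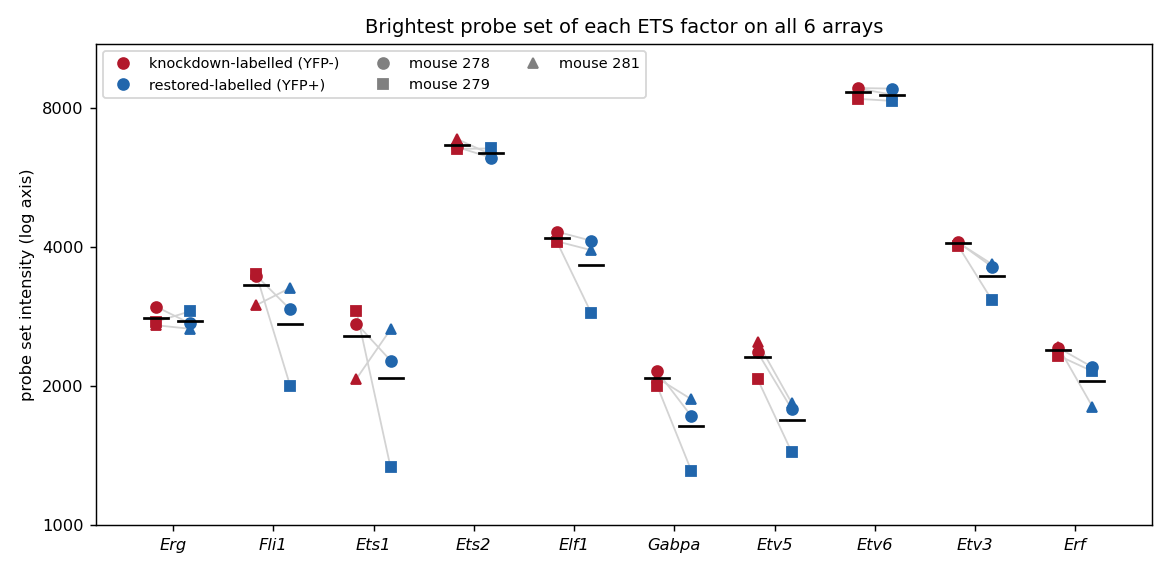
Intensity (log axis) of the brightest probe set of each ETS gene on all 6 arrays, knockdown-labelled in red left of restored-labelled in blue, with marker shapes for mice, grey lines joining the arrays of a mouse and black bars for group means. The groups overlap for Erg, Ets2 and Etv6, among others, while all knockdown-labelled arrays lie above all restored-labelled arrays for Gabpa, Etv5, Etv3 and Erf.

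Fli1, the nearest relative of Erg, differed mainly in 1 mouse at its brighter probe set. Its brighter probe set (1433512_at) gave 3467, 3489.5 and 2991 in knockdown-labelled cells, against 2927, 1996 and 3261 in restored-labelled cells. The value of 1996, on the restored-labelled array of mouse 279, was the lowest, and mouse 281 went the other way. The difference of 0.31 ± 0.207 did not pass (adjusted p = 0.809, limma), and it was 0.10 in a fit of the other 5 arrays that had no mouse term. The dimmer Fli1 probe set (1422024_at) read 473 ± 59.9 in knockdown-labelled and 437 ± 75.6 in restored-labelled cells (SD, n = 3 each). Its difference was 0.12 ± 0.0911, at 0.06, 0.05 and 0.24 in mice 278, 279 and 281.

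Ets1, an activator best known from lymphoid cells, had 4 probe sets. The brightest (1426725_s_at) gave 2729.8, 2905 and 2073 in knockdown-labelled cells, against 2269.9, 1333 and 2650.5 in restored-labelled cells. As for Fli1, the restored-labelled array of mouse 279 was lowest and mouse 281 went the other way, and the difference was 0.34 ± 0.313 with all mice, -0.04 without mouse 279 and 0.05 with 5 arrays. A second probe set (1422028_a_at) gave 342, 411 and 421 in knockdown-labelled cells, against 294, 274 and 331 in restored-labelled cells, so these groups did not overlap. Its difference was 0.37 ± 0.108 (unadjusted p = 0.0282, adjusted p = 0.799, limma). The summed B-cell markers were likewise higher on all knockdown-labelled arrays, although only 4 of 6 markers were higher by mean difference. Their part in the Ets1 signal was not tested. Most of that sum in knockdown-labelled cells was 1 Ighm probe set, while another Ighm probe set went the other way in 2 mice, at 100.3, 72.4 and 92.0 in knockdown-labelled cells against 1968, 6143 and 82.6 in restored-labelled cells. The probe sets below the filter (1452163_at and 1422027_a_at) ranged from 63.9 to 131 in knockdown-labelled cells and from 50.2 to 134 in restored-labelled cells.

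Ets2, the neighbour of Erg and a factor that responds to growth signals, had overlapping values at every probe set. Its brightest probe set (1416268_at) gave 6583, 6517 and 6854 in knockdown-labelled cells, against 6242, 6535 and 6342 in restored-labelled cells, a difference of 0.06 ± 0.0836 (adjusted p = 0.870, limma). The next probe set (1447685_x_at) gave 678, 772 and 655 in knockdown-labelled cells, against 578, 607 and 659 in restored-labelled cells. Its difference was 0.19 ± 0.108. The dimmest (1437809_x_at) read 26.1 to 30.9 in knockdown-labelled and 26.2 to 29.4 in restored-labelled cells, far below the filter. The suffix _x_at marks probe sets, and _s_at others, whose probes can also match further transcripts, so these signals are less certain.

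Among the activators, Elf1, which acts in lymphoid and myeloid genes, had probe sets that differed in size. The dimmer one (1439319_at) gave 1215, 787 and 1356 in knockdown-labelled cells, against 602, 479 and 994 in restored-labelled cells. It was higher in every mouse by 0.99, 0.70 and 0.44, although the groups overlapped. Its mean difference of 0.71 ± 0.139 (1.64-fold) was the largest among the 21 tested (unadjusted p = 0.00700, adjusted p = 0.793, limma), and it was 0.49 with 5 arrays. The brighter Elf1 probe set (1417540_at) gave 4315, 4099 and 4111 in knockdown-labelled cells, against 4126, 2879.7 and 3936 in restored-labelled cells. Its difference of 0.21 ± 0.132 became 0.05 with 5 arrays.

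Gabpa encodes the DNA-binding subunit of a factor that drives many housekeeping and mitochondrial genes. Its brighter probe set (1450664_at) gave 2149, 1998 and 2079 in knockdown-labelled cells, against 1719.6, 1309.9 and 1871 in restored-labelled cells. All knockdown-labelled arrays lay above all restored-labelled ones, with a difference of 0.36 ± 0.123 (1.28-fold; unadjusted p = 0.0444, adjusted p = 0.799, limma) and 0.21 with 5 arrays. The dimmer Gabpa probe set (1450665_at) gave 951, 863 and 738 in knockdown-labelled cells, against 733, 619 and 867 in restored-labelled cells. Here mouse 281 went the other way, and the difference was 0.20 ± 0.174, and 0.08 with 5 arrays.

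Etv5 belongs to the PEA3 group of ETS genes, which are switched on by signalling through the kinase ERK. Its brightest probe set (1428142_at) gave 2366, 2070.2 and 2489 in knockdown-labelled cells, against 1783, 1439 and 1839 in restored-labelled cells. The groups did not overlap, and the mice gave similar differences of 0.40, 0.52 and 0.43. The mean was 0.45 ± 0.0836 (1.37-fold; unadjusted p = 0.00580, adjusted p = 0.793, limma) and 0.34 with 5 arrays. The other Etv5 probe sets differed from it on 1 array. Probe set 1450082_s_at gave 561, 638 and 645 in knockdown-labelled cells, against 399, 694 and 337 in restored-labelled cells, and 1420998_at gave 157, 202 and 179 in knockdown-labelled cells, against 134, 263 and 116 in restored-labelled cells. On the restored-labelled array of mouse 279 these read 0.46 and 0.71 above the mean of the other arrays, where the brightest lay 0.53 below it (-0.53). With all arrays and the mouse as a block, 1450082_s_at gave 0.42 ± 0.225 (unadjusted p = 0.136, limma). Probe set 1420998_at gave 0.14 ± 0.208 (unadjusted p = 0.542, limma) in the same fit. In mouse 279 their differences were negative, at -0.12 and -0.36, and in the other mice they were positive. With 5 arrays, which leave out the array on which they differed, the 3 probe sets gave 0.34, 0.72 and 0.47.

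Etv6 encodes a repressor that blood stem cells need in adult marrow. Its brighter probe set (1434880_at) gave 8831, 8367 and 8808 in knockdown-labelled cells, against 8807, 8284 and 8549 in restored-labelled cells, a difference of 0.02 ± 0.0804. The dimmer one (1423401_at) gave 1235, 998 and 1015 in knockdown-labelled cells, against 1470.2, 1299 and 1354 in restored-labelled cells. It was lower in every mouse without overlap, by a difference of -0.34 ± 0.0872 (unadjusted p = 0.0172, adjusted p = 0.793, limma) that was -0.38 with 5 arrays. Etv6 and Erg were the 2 genes whose tested probe sets differed in sign.

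Etv3 encodes a repressor known from macrophages that leave the cell cycle. Its brightest probe set (1418637_at) gave 4095, 4024 and 4087 in knockdown-labelled cells, against 3622, 3064 and 3668 in restored-labelled cells. These groups did not overlap, and the difference was 0.24 ± 0.0963 (unadjusted p = 0.0671, adjusted p = 0.799, limma) and 0.16 with 5 arrays. Probe sets 1418635_at and 1456358_at gave 0.15 ± 0.165 and 0.19 ± 0.249, and in both the knockdown-labelled array of mouse 279 was the lowest of the 6. The dim probe set 1418636_at read 64 to 76.8 in knockdown-labelled and 62.4 to 81.4 in restored-labelled cells.

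Erf encodes a repressor that ERK removes from the nucleus. Its bright probe set (1435561_at) gave 2419, 2327 and 2430.1 in knockdown-labelled cells, against 2196, 2151 and 1804 in restored-labelled cells. The groups did not overlap, and the difference was 0.23 ± 0.107 (adjusted p = 0.799, limma) and 0.26 with 5 arrays. The dim Erf probe set (1422114_at) gave 54.5, 38.8 and 34.9 in knockdown-labelled cells, against 91.3, 49.2 and 82.1 in restored-labelled cells. It was lower in every mouse, at intensities below the filter of 143, so it was not tested in the same fit.

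**Figure D2:**
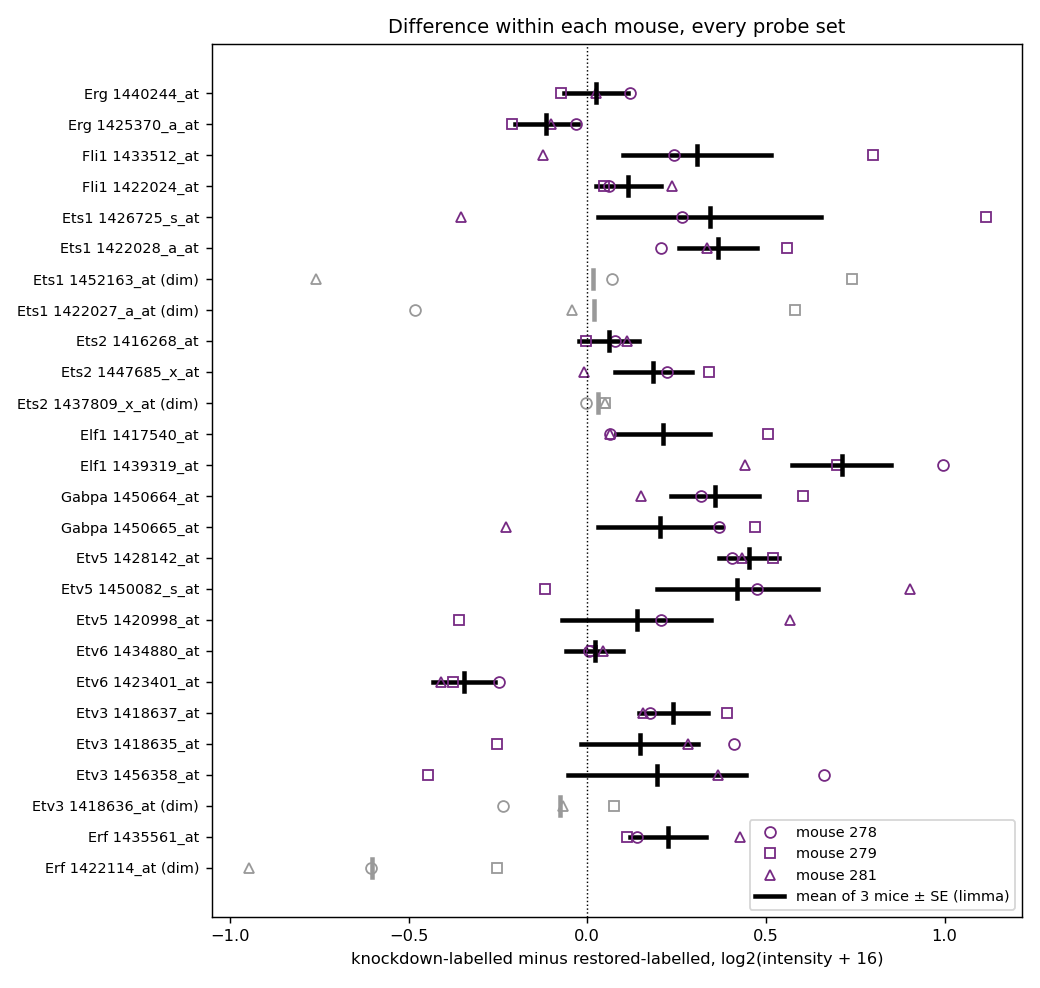
Difference in log2(intensity + 16), knockdown-labelled cells minus restored-labelled cells, for all 26 probe sets, with open symbols for the mice, vertical ticks for the mean and bars for its standard error in limma, and grey for the 5 probe sets below the filter. Most means lie right of 0, while among the tested probe sets 1423401_at of Etv6 and 1425370_a_at of Erg lie left of 0 in every mouse.

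The promoters of the 4 genes whose brightest probe set did not overlap between populations, with that of Erg, are shown because the ETS core GGAA is the sequence that all 10 factors share. The windows come from RefSeq (GRCm38.p6) and run from 250 bases before to 50 bases after an annotated transcript start, 5′ to 3′ on the strand of the gene, with GGAA and its reverse complement TTCC in capitals. For a gene with several starts, the window with the most cores is given.
Gabpa (chr16:84834874-84835173, plus strand): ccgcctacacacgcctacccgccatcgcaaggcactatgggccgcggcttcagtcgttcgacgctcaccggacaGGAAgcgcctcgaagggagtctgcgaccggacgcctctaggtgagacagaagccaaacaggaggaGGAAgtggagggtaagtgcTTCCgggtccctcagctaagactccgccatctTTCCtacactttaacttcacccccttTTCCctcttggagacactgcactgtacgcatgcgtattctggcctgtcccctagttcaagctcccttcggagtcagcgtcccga
Etv5 (chr16:22438319-22438618, minus strand): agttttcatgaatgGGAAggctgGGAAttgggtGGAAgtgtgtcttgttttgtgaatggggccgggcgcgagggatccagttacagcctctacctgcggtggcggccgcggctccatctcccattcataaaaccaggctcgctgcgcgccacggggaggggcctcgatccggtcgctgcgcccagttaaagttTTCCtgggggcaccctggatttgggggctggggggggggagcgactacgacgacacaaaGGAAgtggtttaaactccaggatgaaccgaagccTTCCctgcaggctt
Etv3 (chr3:87525328-87525627, plus strand): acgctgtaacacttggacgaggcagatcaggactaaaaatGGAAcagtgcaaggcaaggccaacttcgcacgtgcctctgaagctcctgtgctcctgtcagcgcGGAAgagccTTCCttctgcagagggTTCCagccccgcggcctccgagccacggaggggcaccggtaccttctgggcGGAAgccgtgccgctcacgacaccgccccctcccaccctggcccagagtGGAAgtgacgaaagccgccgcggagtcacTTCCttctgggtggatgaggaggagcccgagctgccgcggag
Erf (chr7:25250709-25251008, minus strand): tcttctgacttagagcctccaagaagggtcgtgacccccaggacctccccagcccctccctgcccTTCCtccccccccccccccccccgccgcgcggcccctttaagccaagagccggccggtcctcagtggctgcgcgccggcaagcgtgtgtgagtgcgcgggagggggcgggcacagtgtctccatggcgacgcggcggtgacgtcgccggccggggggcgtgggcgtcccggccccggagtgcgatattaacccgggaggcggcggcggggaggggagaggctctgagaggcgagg
Erg (chr16:95530316-95530615, minus strand): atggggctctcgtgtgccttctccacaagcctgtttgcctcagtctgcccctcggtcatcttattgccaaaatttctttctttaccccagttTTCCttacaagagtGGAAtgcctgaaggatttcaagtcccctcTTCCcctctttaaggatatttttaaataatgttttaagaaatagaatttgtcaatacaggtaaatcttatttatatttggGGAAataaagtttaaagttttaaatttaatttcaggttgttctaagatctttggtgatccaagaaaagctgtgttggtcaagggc
The core occurred 5 times in the Gabpa window, 6 in Etv5, 7 in Etv3, 1 in Erf and 4 in Erg, counted on both strands. It is short and common: 96.0% of all 32851 promoter windows of 300 bases hold it, with a median of 3 matches. The longer form CCGGAAG, which contains the core, was searched on both strands too and was found in the Gabpa window and in 8.86% of all windows. Of the 12 windows of 8 member genes, 11 held GGAA and 1 held CCGGAAG. The other Etv5 start had 0 matches of GGAA, and the other Erg starts had 2 and 1. Windows for Fli1 and Ets1 were not analysed here. A match describes these letters and does not show that a factor binds there.

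All 10 factors had a brightest probe set above the 75th percentile of every array. A signal also depends on the probes, so an order of signals is not an order of transcript numbers. By the mean percentile of the brightest probe set over the 6 arrays, Etv6 stood at 98.7 ± 0.212 (SD) and Ets2 at 97.1 ± 0.232. Elf1 at 91.5 ± 2.11 and Etv3 at 91.1 ± 1.59 followed and were close, with Elf1 above Etv3 on 5 of 6 arrays. Fli1 at 88.1 ± 2.90 and Erg at 87.1 ± 0.408 were close as well, with Fli1 above Erg on 5 of 6 arrays. Next came Ets1 at 84.3 ± 3.94 and Erf at 84.0 ± 1.43, which lay in that order on 4 arrays. Etv5 at 82.5 ± 2.69 and Gabpa at 81.5 ± 2.42 were last, in that order on 5 arrays. Erg, Ets2 and Etv6 held their place most closely, with SDs below 0.5 percentile points, whereas Ets1 ranged from 77.1 to 87.7. Probe sets of the same gene could lie farther apart than these genes did: from 18.6 to 97.1 for Ets2, from 38.7 to 91.1 for Etv3 and from 32.9 to 84.0 for Erf. The Erg probe sets lay at 79.8 and 87.1.

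**Figure D3:**
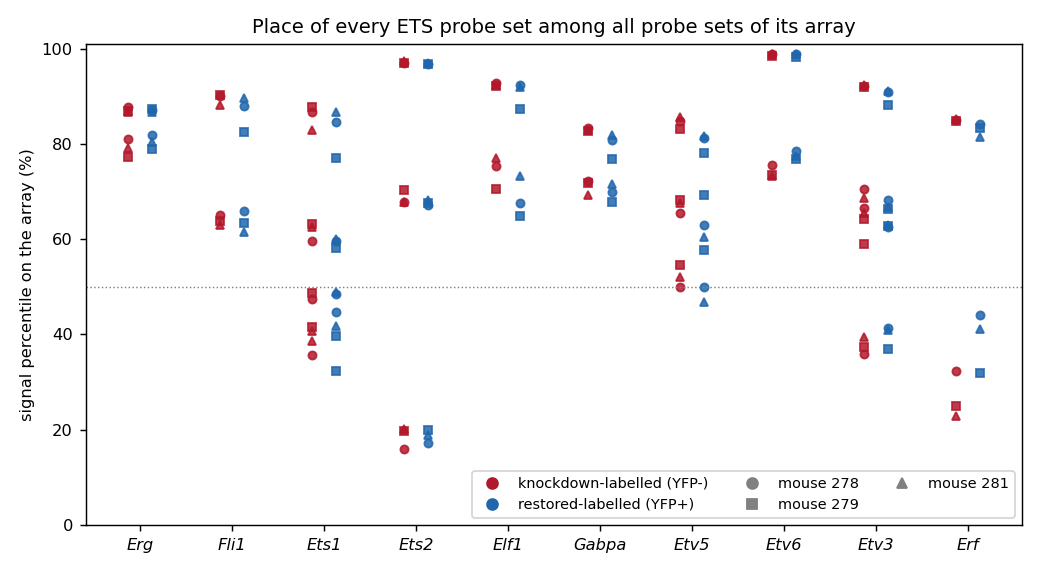
Percentile of every ETS probe set among all 45037 probe sets of its array, knockdown-labelled in red left of restored-labelled in blue, with marker shapes for mice and a dotted line at the median. Each gene has a probe set above the 75th percentile on every array, and probe sets of 1 gene can lie far apart.

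No tested ETS probe set passed an adjusted p of 0.05 (0 of 21), and neither did any of the 22519 probe sets (0.00%). At unadjusted p below 0.05 in limma, 4 of 21 were higher (Elf1, Etv5, Ets1 and Gabpa), where 4.75% of all probe sets were, and 1 was lower (Etv6), where 1.33% were. The difference was above 0 for 19 of 21, against 54.8% of all. It was above 0 in every mouse for 9 of 21, against 20.8%, and below 0 in every mouse for 2, against 10.4%. All knockdown-labelled arrays lay above all restored-labelled arrays for 5 of 21 (9.60% of all) and below for 1 (4.36%). The median difference was 0.20 over the 21 and 0.02 over all tested probe sets. With each array centred on its median intensity, these medians were 0.10 and -0.09. Probe sets of the same gene share its RNA, and all 21 share the same 6 arrays, so they are not independent. The genes were also chosen with such differences in view.

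The median difference was smaller without 1 array, as it was without any single mouse, although single probe sets moved either way. The restored-labelled array of mouse 279, the one with the 3′ over 5′ ratio of 0.707, was the lowest of the 6 for 10 of 21 ETS probe sets, against 25.7% of all. It was the highest for 2 of 21, both of Etv5, against 32.5% of all. Its median deviation from the mean of the other arrays was -0.13 over the 21 and 0.02 over all. In the single mice, 19 of 21 probe sets were higher in mouse 278 (60.9% of all), 13 in mouse 279 (45.7%) and 15 in mouse 281 (61.2%). With 5 arrays the median of the 21 was 0.10, and that of all tested probe sets 0.03, in a fit that had no mouse term. Leaving out a whole mouse, with the mouse term kept, also gave medians of the 21 below the 0.20 of all arrays. They were 0.17 without mouse 278, 0.15 without mouse 279 and 0.18 without mouse 281. The part of RNA quality in these values was not tested.

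**Figure D4:**
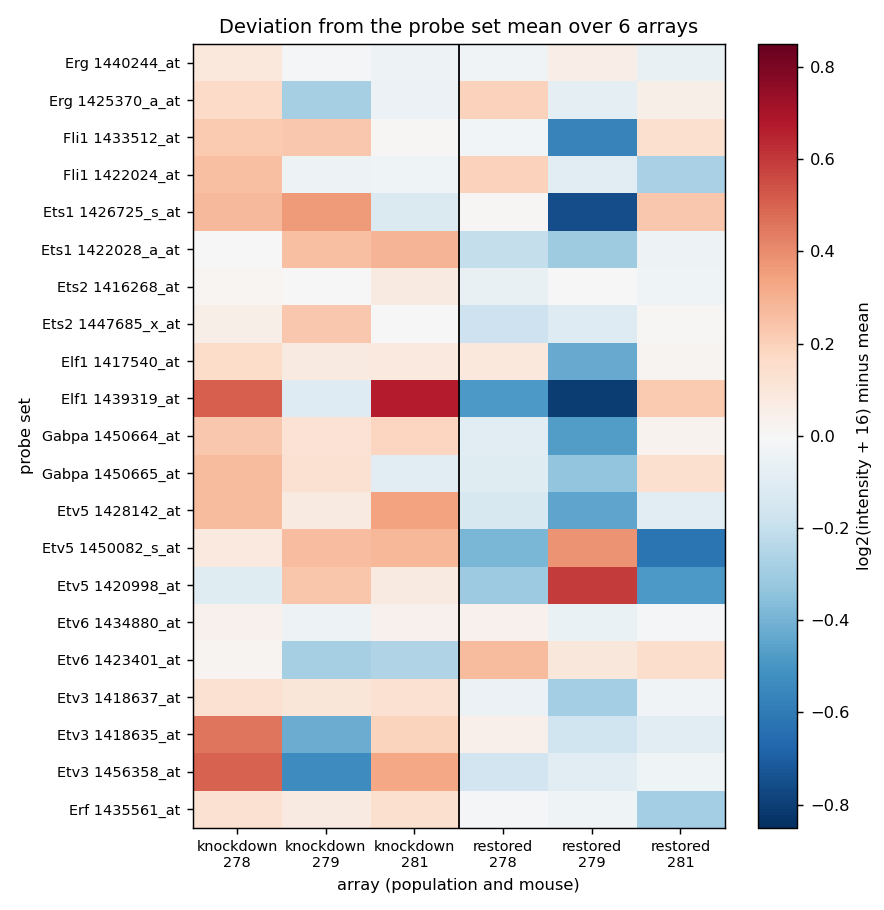
Deviation of each of the 21 tested ETS probe sets from its own mean over the 6 arrays (colour, log2 scale; red above, blue below), with knockdown-labelled arrays left of the line and restored-labelled arrays right of it. The restored-labelled array of mouse 279 is blue for 1433512_at of Fli1, for the Ets1, Elf1 and Gabpa probe sets and for the brightest Etv5 probe set, and red for the other Etv5 probe sets.

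In the rest of the ETS family most tested probe sets also had positive differences. Of 16 further ETS genes, 8 had a probe set above the filter, with 16 probe sets in all, of which 13 were higher (54.8% of all tested probe sets were) and 3 lower, at a median of 0.11, or 0.09 with 5 arrays. At unadjusted p below 0.05 there was 1 higher, against 4.75% of all, and 0 lower, against 1.33%, and 0 passed the adjusted threshold (limma). The smallest p belonged to Elf4 (1421337_at), which controls the cycling of lymphocytes and stem cells, with 166, 140.2 and 203 in knockdown-labelled cells against 119, 115 and 142 in restored-labelled cells. Its difference was 0.39 ± 0.0937, and its restored-labelled mean lay below the filter intensity. The brighter Elf4 probe set (1421338_at) gave 0.42 ± 0.284, and 0.01 with 5 arrays. Elf2 (1418276_at) followed at 0.56 ± 0.248, while its brighter probe sets 1418275_a_at and 1428045_a_at gave 0.05 and -0.09. Next was Elk3 (1448797_at), a target of ERK signalling, at 0.16 ± 0.0893. The restored-labelled array of mouse 279 was the lowest for 5 of these 16 probe sets, against 25.7% of all.

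Genes of proteins that act with ETS factors had mixed signs. Of 8 listed genes, 6 had probe sets above the filter (16 in all), of which 11 were higher (54.8% of all were) and 5 lower. At unadjusted p below 0.05 (limma), 0 were higher, against 4.75% of all, and 0 lower, against 1.33%. With 16 probe sets these shares amount to few calls, so counts of 0 say little. Their median was 0.05, and 0.02 with 5 arrays. Runx1 (1452530_a_at), which binds DNA together with ETS1, had the smallest p at 0.22 ± 0.0988, and 0.14 with 5 arrays. The other 4 Runx1 probe sets lay between -0.06 and 0.19, and the brightest of them (1440878_at) gave 0.05. The corepressor gene Sin3a (1419101_at) followed at 0.15 ± 0.0952, and 0.07 with 5 arrays.

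Genes of the ERK pathway and its feedback, the response to which Etv5 belongs, had mostly positive differences. Of 16 listed genes, 10 had probe sets above the filter (19 in all), of which 17 were higher (54.8% of all were) and 2 lower, with a median of 0.24. At unadjusted p below 0.05, 3 were higher, against 4.75% of all, and 0 lower, against 1.33%, and 0 passed the adjusted threshold (limma). Spred2 (1436892_at), an inhibitor of ERK activation, gave 553, 429 and 690.3 in knockdown-labelled cells, against 390.2, 262 and 488 in restored-labelled cells. Its difference was 0.55 ± 0.092 (adjusted p = 0.793, limma), and 0.32 with 5 arrays. The brightest Spred2 probe set (1434403_at) gave 0.27 ± 0.115, and 0.16 with 5 arrays. Spry4 (1440867_at), another feedback inhibitor, gave 94.8, 343 and 244 in knockdown-labelled cells, against 70.7, 223 and 110.3 in restored-labelled cells, with a restored-labelled mean below the filter intensity. Its difference was 0.66 ± 0.164, and 1.06 with 5 arrays. Spred1 (1423161_s_at) gave 0.28 ± 0.094 without overlap between the groups, and 0.17 with 5 arrays. The brightest Spred1 probe set (1423160_at) gave 0.09 ± 0.0863, and its groups overlapped. Many of the 19 probe sets belong to Spred1 or Spred2, and probe sets of the same gene are not independent. The restored-labelled array of mouse 279 was the lowest for 8 of the 19 probe sets, against 25.7% of all, and with 5 arrays their median was 0.16.

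The genes whose pattern over the 6 arrays was most like that of the brighter Erg probe set were Tmem159, Carns1 and Axin1, with Pearson r of 0.98 each among 10823 genes. The Erg probe set itself hardly varied, with log2 deviations from its mean between -0.07 and 0.09, so these matches follow very small changes. These arrays come in pairs from 3 mice, and 59 genes had r above 0.9, so the order among them is a description only. None of the other 9 ETS genes was among them, since their r lay between -0.30 (Elf1) and 0.46 (Erf).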

How the data were processed

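Probe set intensities of 6 arrays were used. Per the labels' protocols, the NuGEN Ovation V2 kit served to amplify and label the RNA. The deposited values are linear intensities, 1 per probe set and array. How the authors summarized and normalized them was not given in those sources. The arrays look scaled to each other in mean intensity, although their medians differ. Array values have no counting depth, and precision rests on the number of arrays. Of 45101 probe sets 64 controls were left out, and a probe table with older annotation names 34945 by 1 symbol, 932 by several and 9160 by none. Values were taken to log2(intensity + 16). Probe sets with a mean log2 value at or above the median, an intensity of 143, were tested (22519). Dim probe sets have understated differences because of the added 16.

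Each probe set was tested with limma 3.58.1 (lmFit and eBayes, R 4.3.3) and a fixed term for the mouse, because the study's design says that both populations of a pair came from 1 animal. Benjamini-Hochberg adjustment ran over all tested probe sets. Same-mouse deviations from the group means correlated at 0.27, -0.07 and -0.21 in mice 278, 279 and 281. On simulated arrays with 200 changed among 22519 probe sets (5 runs), 59.6% of the 2-fold changes and 1.2% of the 1.5-fold changes were recovered. The named genes are the 10 members with every probe set, the 3 other ETS, 2 partner and 3 ERK genes with the smallest p, and the 3 genes most correlated with Erg. Members and lists were chosen with earlier results of these data known. The alternatives are given with the dependence on processing. Figures were drawn with matplotlib 3.10.9.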

Additional observations from a re-analysis of the deposited data

How the results depend on the processing

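Over 17 alternatives, the adjusted p of the brightest probe set of each of the 10 genes stayed above 0.05 (170 values), and 0 probe sets passed in any of them. The signs of Fli1, Elf1, Gabpa, Etv5, Etv3 and Erf were the same in all 17. Alternatives that change only the error or which probe sets are tested, such as random blocks, no filter or a trend, cannot change these differences. Centring the arrays on the median put the median of all tested probe sets at -0.09 instead of 0.02. The brightest probe sets then gave -0.0832 for Erg, -0.0454 for Ets2 and -0.0864 for Etv6, and the median of the ETS probe sets was 0.0961. Of the ETS probe sets, 3 had unadjusted p below 0.05 (limma), among 1551 of all 22519, and 1 gene had probe sets of opposite sign. As means over a gene's probe sets, Erg gave -0.0453 and Etv6 -0.162, with 1 ETS gene among 614 genes at unadjusted p below 0.05. After quantile normalization the ETS median was 0.137 and the count 3, among 1408 probe sets. The count was 2 among 632 genes with 1 probe set per gene and 11 among 6584 probe sets with array weights, whose estimate gave a convergence warning. The weights were 5.62 for the arrays of mouse 278, 0.309 for those of mouse 279 and 0.575 for those of mouse 281. That fit therefore rests mostly on mouse 278. Probe sets at unadjusted p below 0.05 numbered 1369 with the mouse block, 1291 with no replicate block, 2705 with no filter and 833 in the upper 30%, and with no filter 4 genes had probe sets of opposite sign. With no replicate block the difference of Erg was 0.02, which complete pairs leave unchanged, and the blocking changed no call at the adjusted threshold. Leaving out a mouse, or the restored-labelled array of mouse 279 with no mouse term, gave 573 to 1810 such probe sets, 1 to 6 of them ETS, ETS medians of 0.0978 to 0.178 (0.149 without mouse 279), and 1 to 3 genes with opposite signs. It gave -0.0247 (without mouse 278) to 0.0729 for Erg, -0.0438 (without mouse 279) to 0.690 for Ets1, and -0.0018 for Etv6 without that array. Among probe sets named by 1 gene, the percentiles were 85.1 for Erg, 81.3 for Erf, 79.5 for Etv5 and 78.3 for Gabpa. The 3 pairs of arrays limit the size of change that can pass, as the simulated recovery shows.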
